A study of Drosophila melanogaster with 46 samples.

Results

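The genes described here are fit, Cyp4d21 and apolpp, 3 Drosophila melanogaster genes with known expression in the fat body. They were taken from the array by gene symbol: every spot that the platform annotation assigns to one of these symbols was kept. That gave 6 of 31464 spots on an array, a duplicate pair for each gene, or 3 of 15732 array elements and 3 of 10860 named genes. RefSeq's Release 6 table lists fit (CG17820) on chromosome arm 3R, Cyp4d21 (CG6730) on 2L and apolpp (CG11064) on chromosome 4.

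The study set RNA of 11 kinds against each other on 46 two-colour arrays to measure sex-biased expression, in 15 comparisons with 2 or 4 arrays each. The other 2 arrays carried RNA of mixed sexes in both channels. Flies without a germline, here called tudor females and tudor males, carried the alleles tud[1] bw[1]sp[1], came from mothers homozygous for tud, and were used whole. Flies with altered somatic sex were XX;tra2 flies (w[67c]/w[67c];tra2[B]/TRIX), XY;tra2 flies (w[67c]/BsY;tra2[B]/TRIX) and XX;dsx flies (+/+;dsx[M+R45]/dsx[swe]). Ovaries, testes and the carcasses of females and males left after dissection (labelled gonadectomized) came from flies with an intact germline, as did whole females and males. The labels give these as y[1]w[67c] flies, although some source fields of whole females and males read y[1]w[1], and other whole-fly, gonad and carcass samples carry no genotype there. All flies were adults of 3 to 5 days kept at 25 C. The mutant stocks carry other marker alleles than the y[1]w[67c] flies, so mutation and genetic background cannot be told apart in any comparison between them. The labels do not say how many flies entered an RNA pool or whether repeat arrays used separate pools, so that p-values measure the spread between arrays, part of which may be technical.

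The insect fat body stores lipid and glycogen, makes most proteins of the haemolymph, and is a tissue in which the somatic sex pathway acts. In that pathway transformer and transformer 2 direct female splicing of doublesex, and doublesex sets female or male transcription of its targets. The gene fit, female-specific independent of transformer, encodes a small secreted protein of the fat body known for high levels in females and for a role in feeding. Cyp4d21, also called sxe1, encodes a cytochrome P450 known for male-biased expression in the fat body of the head. The product of apolpp is the precursor of apolipophorins I and II, the protein core of lipophorin, which carries lipid through the haemolymph in both sexes.

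All values are log2 ratios of the first RNA named over the second, after centring each array on its median. A channel 1 over channel 2 direction is likely, from control genes: on 4 of 4 arrays each, Yp1 to Yp3 (yolk proteins) read higher in females, and betaTub85D, Mst87F and dj (testis genes) read higher in testis. The log base is not given in the sources used here and was taken as 2, so fold values depend on that reading. An array measured between 7994 and 14881 elements. Of the 44 arrays in comparisons, 42 measured apolpp, 37 fit and 27 Cyp4d21. On the mixed RNA arrays, where a log2 ratio of 0 is the null, fit stood at 0.16 and -0.13 and apolpp at 0.18 and 0.14, whereas Cyp4d21 was not measured. Ratios were called at a limma adjusted p below 0.05, over all elements tested in the comparison. In the comparison of XX;tra2 with XY;tra2 flies, array 15b stood apart, with a correlation over elements of 0.064 with array 16a and 0.176 with array 16b. Array 3a correlated with array 4a at 0.3 in the carcass comparison. Since these are bulk samples, fewer fat body cells and less RNA per cell cannot be told apart, and a ratio also depends on what the rest of the body contributes to the RNA.

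**Figure D1:**
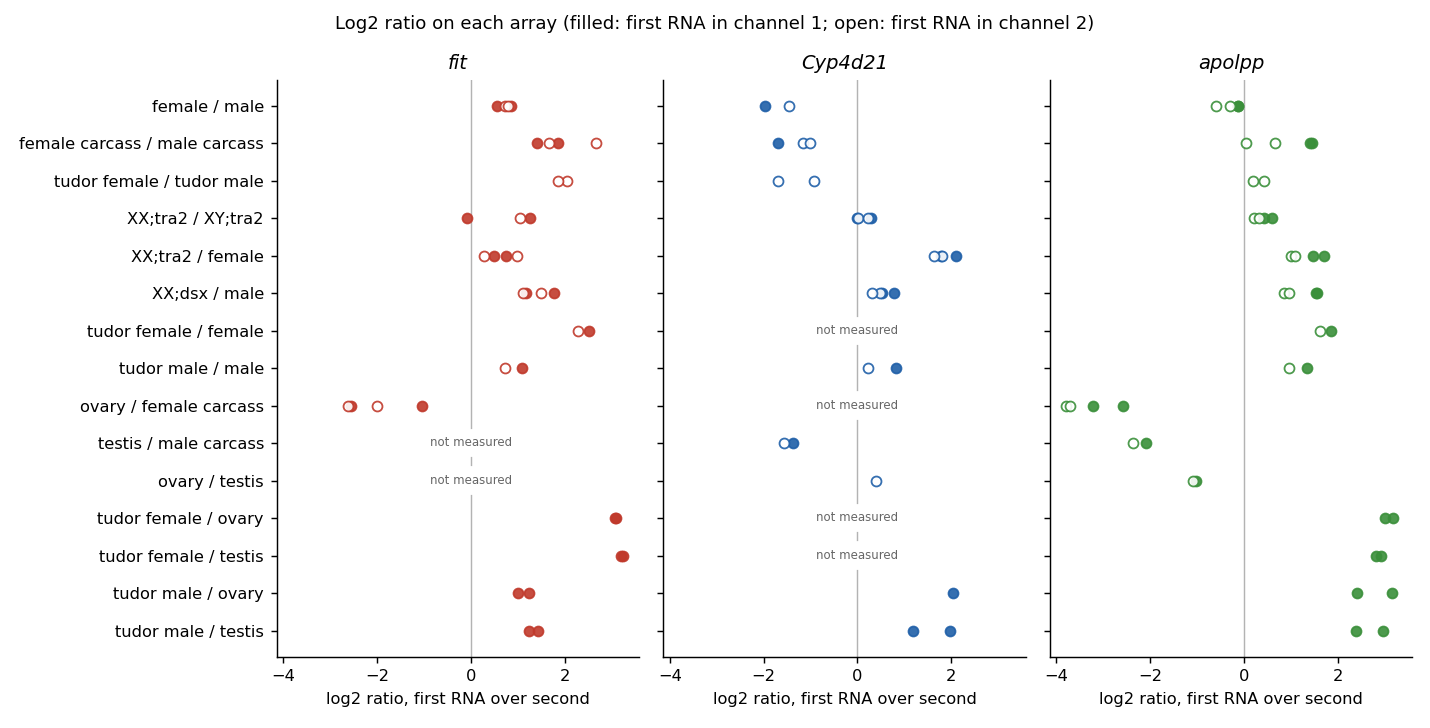
Each point is the log2 ratio on an array (x axis, first RNA over second) in 15 comparisons (y axis), filled where the first RNA was in channel 1 and open where it was in channel 2. The fit points lie above 0 in the sex comparisons except for array 15b at -0.09, the Cyp4d21 points lie below 0 in the comparisons of females with males, tudor females with tudor males and the carcasses, and the apolpp points reach their lowest values in ovary over female carcass.

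Transcripts of fit were higher in females than in males in whole flies, in carcasses and in flies without a germline, and the difference in whole flies was the smallest of the 3. Among germline-less flies the log2 ratio of tudor females over tudor males was 2.05 on array 17a and 1.85 on array 17b. In carcasses, female over male, it was 1.85 on array 3a, 1.41 on 3b, 2.67 on 4a and 1.67 on 4b. In whole flies the 4 arrays gave log2 ratios of 0.85, 0.56, 0.74 and 0.79. Every array was above 0, and each tudor or carcass value exceeded each whole-fly value. The fitted log2 ratio was 1.95 ± 0.28 (SE, n = 2) in tudor flies, a 3.87-fold difference with an adjusted p of 5e-05, where 1.13% of elements tested were called, 0.27% higher and 0.863% lower. The 4 carcass arrays gave 1.90 ± 0.19 (SE), or 3.74-fold, with an adjusted p of 3.8e-08 and 16.5% of elements called, 8.87% higher and 7.67% lower. In whole flies the fitted log2 ratio of fit was 0.73 ± 0.19 (SE, n = 4), or 1.66-fold, with an adjusted p of 0.00187 and 55.4% of elements called, 28.1% higher and 27.2% lower. The whole-fly call was lost after scaling all arrays to one spread (adjusted p = 0.0537) and when the second spot alone was used (adjusted p = 0.0617).

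Cyp4d21 ran the other way and was lower in females than in males in all 3 settings. The log2 ratios of tudor females over tudor males were -1.69 on array 17a and -0.92 on array 17b (SD 0.54). In carcasses, female over male, they were -1.70, -1.17 and -1.01 on arrays 3a, 4a and 4b. Whole females over whole males gave -1.98 on array 1a and -1.46 on array 2a, and the other 2 whole-fly arrays did not measure the gene. No array was above 0, and the ranges of the 3 settings overlapped. The fitted log2 ratio was -1.28 ± 0.21 (SE, n = 2; 2.43-fold lower, adjusted p = 0.000956) in tudor flies, where leaving out array 17a left -0.90 with an adjusted p of 0.557. It was -1.27 ± 0.16 (SE, n = 3; 2.42-fold lower, adjusted p = 1.64e-05) in carcasses. In whole flies it reached -1.72 ± 0.20 (SE, n = 2; 3.29-fold lower, adjusted p = 6.12e-07).

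The lipophorin gene apolpp showed no common direction. Its log2 ratio of tudor females over tudor males was 0.20 on array 17a and 0.43 on array 17b. Female over male carcasses gave 1.46 on array 3a and 1.41 on array 3b, but 0.04 on array 4a and 0.66 on array 4b, which had the dyes exchanged. In whole flies the log2 ratios were -0.12, -0.12, -0.60 and -0.30. The carcass values were above 0 and the whole-fly values below it, without overlap. With a dye coefficient for the element, which for apolpp was 0.26 ± 0.04 (SE, adjusted p = 3.26e-05), the fitted log2 ratio was 0.57 ± 0.17 in tudor flies (SE, n = 2, adjusted p = 0.168), which did not pass the test. In carcasses it was 0.89 ± 0.12 (SE, n = 4; 1.86-fold, adjusted p = 2.84e-06), and with the 4 carcass arrays alone the same value had an adjusted p of 0.176. In whole flies apolpp fell by 0.29 ± 0.12 on the log2 scale (SE, n = 4, adjusted p = 0.0425). That call was lost in 5 alternatives to the fit, with adjusted p-values between 0.053 and 0.338, and without array 1a, 1b or 2a (adjusted p = 0.154, 0.147 and 0.102). The dye coefficients of fit, 0.00 ± 0.07, and of Cyp4d21, 0.02 ± 0.06, did not pass the test (SE, adjusted p = 0.979 and 0.824).

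**Figure D2:**
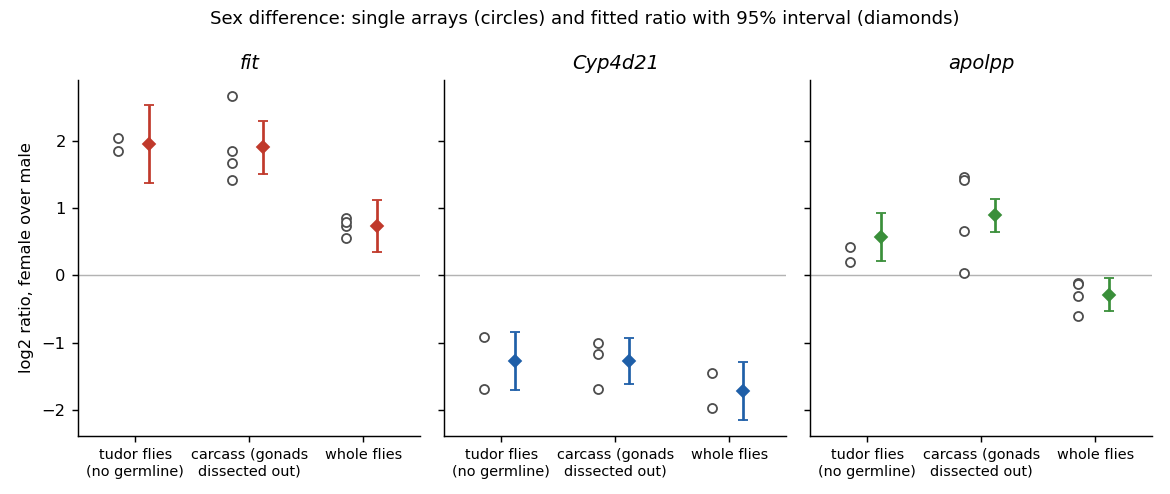
Log2 ratio of female over male (y axis) for each gene in tudor flies, carcasses and whole flies, with single arrays as circles and the fitted ratio with its 95% interval as diamonds. The fitted values of fit are 1.95, 1.90 and 0.73, those of Cyp4d21 are -1.28, -1.27 and -1.72, and those of apolpp are 0.57, 0.89 and -0.29.

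Whether a sex difference changed once gonads or germline were absent was tested as a difference of log2 ratios in the same fit. For fit, the tudor sex difference exceeded the whole-fly one by 1.22 ± 0.34 (SE, adjusted p = 0.00903, 25.7% of elements called), and the carcass sex difference exceeded it by 1.17 ± 0.27 (SE, adjusted p = 0.0015, 35.8% of elements called). For apolpp the same differences were 0.86 ± 0.21 (SE, adjusted p = 0.00331) and 1.18 ± 0.17 (SE, adjusted p = 5.72e-06). Both genes therefore read more female-biased relative to the array median where gonads or germline were missing. For Cyp4d21 the differences were 0.44 (95% interval -0.16 to 1.05, adjusted p = 0.29) and 0.45 (-0.10 to 0.99, adjusted p = 0.188), which did not pass the test. After scaling all arrays to one spread, the Cyp4d21 tudor minus whole-fly difference was -2.53 and passed (adjusted p = 0.000755), opposite in sign. With either tudor array left out the fit difference between tudor and whole flies lost its call (adjusted p = 0.105 without 17a and 0.0617 without 17b), and the apolpp one did so without 17b (adjusted p = 0.088) and without the dye coefficient (adjusted p = 0.17).

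Between tudor flies and carcasses the sex difference of none of the 3 genes passed the test. The tudor minus carcass difference in log2 ratio was 0.05 (95% interval -0.65 to 0.74) for fit, -0.01 (-0.55 to 0.53) for Cyp4d21 and -0.32 (-0.75 to 0.11) for apolpp, with adjusted p-values of 0.962, 0.994 and 0.551. The share of all elements called was 0.161%, or 17 of 10557. These intervals leave room for a difference of more than 0.5 in either direction for fit and Cyp4d21. The comparison also depends on the scale of the arrays: after scaling to one spread, fit had a tudor minus carcass difference of 3.11 (adjusted p = 5.28e-07) and Cyp4d21 one of -2.002 (adjusted p = 0.00289). The median absolute deviation of log ratios was 0.085 on both tudor sex arrays and 0.146 to 0.293 on the carcass arrays, so scaling stretched the tudor arrays more.

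The label of the carcass as a body without gonads was checked against marker genes. Between female and male carcasses 4 of 4 tested ovary markers were higher and 5 of 5 testis markers lower, with log2 ratios of 2.20 for dhd and -1.48 for w-cup at the extremes, where 8.87% of all elements were higher and 7.67% lower. Between tudor females and tudor males limma called 0 of 3 tested ovary markers and 0 of 5 testis markers, with median log2 ratios of 0.48 and -0.64. At an unadjusted p below 0.05 it was 1 of 3 and 4 of 5, and limma called 1.13% of all elements there, so 0 calls is near that share. The accessory gland markers SP, Acp36DE, Acp53Ea and Mst57Dc, which belong to the male soma, were lower in female than in male carcasses and in tudor females than in tudor males, 4 of 4 in each. The same 4 markers were higher in testis than in male carcass, with a median log2 ratio of 1.15, so the testis RNA also carried transcripts of accessory gland genes. The part of such remaining gonad RNA in the ratios of fit, Cyp4d21 and apolpp was not tested.

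Loss of the germline went with higher fit and apolpp levels relative to the array median. The log2 ratio of fit in tudor females over whole females was 2.51 on array 24 and 2.28 on array 25, and in tudor males over whole males it was 1.09 on array 22 and 0.73 on array 23. For apolpp the tudor female arrays gave 1.87 and 1.63 and the tudor male arrays 1.34 and 0.97. All 8 values were above 0, and for both genes the female values lay above the male ones. In females the fitted log2 ratio was 2.39 ± 0.28 for fit (5.25-fold, adjusted p = 8.64e-07) and 1.75 ± 0.18 for apolpp (3.36-fold, adjusted p = 6.68e-08; SE, n = 2 each), where 29.3% of elements were called, 14.3% higher and 15% lower. In males it was 0.91 ± 0.28 for fit (adjusted p = 0.0454) and 1.15 ± 0.18 for apolpp (2.22-fold, adjusted p = 2.48e-05; SE, n = 2 each), where 6.85% of elements were called, 1.16% higher and 5.69% lower. The male fit call was lost without centring (adjusted p = 0.0555) and when either of its 2 arrays was left out (adjusted p = 0.38 without 22 and 0.216 without 23).

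Cyp4d21 was measured on neither array of tudor females with whole females. In tudor males over whole males its log2 ratio was 0.82 on array 22 and 0.22 on array 23, both above 0. The fitted 0.52 ± 0.20 (SE, n = 2, adjusted p = 0.184) did not pass the test. For fit the log2 ratio of tudor over whole flies was larger in females than in males by 1.48 ± 0.39 (SE, adjusted p = 0.0191), where 10.4% of elements were called. That call was lost without array 23, 24 or 25 (adjusted p = 0.212, 0.109 and 0.121). For apolpp the same difference was 0.60 (95% interval 0.09 to 1.10, adjusted p = 0.121), which did not pass. On the tudor female arrays all 5 ovary markers were lower than in whole females, with a median log2 ratio of -1.54, and on the tudor male arrays all 5 testis markers were lower, with a median of -2.31. How far the removal of gonad RNA alone sets these ratios was not tested.

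All 3 genes were higher in XX;tra2 flies, which develop a male soma, than in whole females. The log2 ratios of fit were 0.98, 0.28, 0.75 and 0.49 on arrays 11a, 11b, 12a and 12b. Those of Cyp4d21 were 1.80, 1.63, 2.11 and 1.78, and those of apolpp 1.00, 1.10, 1.70 and 1.47. No array of any gene was at or below 0, and the lowest Cyp4d21 value exceeded every fit value. The fitted log2 ratio was 0.62 ± 0.19 for fit (adjusted p = 0.00708), 1.83 ± 0.14 for Cyp4d21 (3.55-fold, adjusted p = 1.48e-09) and 1.32 ± 0.12 for apolpp (2.49-fold, adjusted p = 2.09e-10; SE, n = 4 each), where 54.9% of elements were called, 27.7% higher and 27.2% lower. The fit call was lost without array 11a (adjusted p = 0.0623) and after scaling all arrays to one spread (adjusted p = 0.0562). Ovary markers fell in the same comparison, 5 of 5 with a median log2 ratio of -2.57, and their part was not tested.

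Compared with whole males, XX;dsx flies also had more of all 3 transcripts. The 4 arrays gave fit log2 ratios of 1.12, 1.49, 1.78 and 1.18. They gave 0.47, 0.31, 0.78 and 0.53 for Cyp4d21 and 0.86, 0.97, 1.54 and 1.55 for apolpp. The ranges of fit and Cyp4d21 did not overlap. Fitted log2 ratios were 1.39 ± 0.19 for fit (2.63-fold, adjusted p = 1.79e-06), 0.52 ± 0.14 for Cyp4d21 (1.44-fold, adjusted p = 0.00759) and 1.23 ± 0.12 for apolpp (2.34-fold, adjusted p = 2.26e-09; SE, n = 4 each), with 25.1% of elements called, 10.6% higher and 14.4% lower. Without array 14a the Cyp4d21 call was lost (adjusted p = 0.0793). Testis markers were lower in these flies than in whole males, 5 of 5 with a median log2 ratio of -2.26, and their part was not tested.

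Between XX;tra2 and XY;tra2 flies, which share a male soma and differ in sex chromosomes and in their germline, fit was the most variable of the 3 genes. Its log2 ratio was 1.26 on array 15a, 1.06 on array 16a and -0.09 on array 15b, the array that stood apart. Cyp4d21 gave 0.28, -0.01, 0.02 and 0.23 on arrays 15a, 15b, 16a and 16b, and apolpp gave 0.43, 0.59, 0.22 and 0.31. Only apolpp was above 0 on every array that measured it. The fitted log2 ratio of fit was 0.73 ± 0.22 (SE, n = 3, adjusted p = 0.0189), and it was 1.16 (adjusted p = 0.00085) without array 15b. Without array 15a or 16a the fit call was lost (adjusted p = 0.264 and 0.219). For apolpp the fitted log2 ratio was 0.39 ± 0.12 (SE, n = 4, adjusted p = 0.0186), and the call was lost without array 16a or 16b and without the dye coefficient (adjusted p = 0.107, 0.143 and 0.154). For Cyp4d21 it was 0.13 (95% interval -0.16 to 0.42, n = 4, adjusted p = 0.62), so a difference of more than 0.42 lay outside the interval. Of all elements tested, 19.2% were called, 4.46% higher and 14.8% lower. Testis markers were lower in XX;tra2 than in XY;tra2 flies, 5 of 5 with a median log2 ratio of -2.41, and their part in the fit and apolpp ratios was not tested.

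Gonads held less of each measured transcript than the body around them. The log2 ratio of ovary over female carcass was -1.05, -2.55, -1.99 and -2.61 for fit on arrays 7a, 7b, 8a and 8b. For apolpp the same arrays gave -2.57, -3.22, -3.79 and -3.70, and none measured Cyp4d21. On each array apolpp lay below fit. The fitted log2 ratios were -2.05 ± 0.19 for fit (4.14-fold lower, adjusted p = 8.77e-10) and -3.32 ± 0.12 for apolpp (10.0-fold lower, adjusted p = 3.45e-19; SE, n = 4 each), where 48.1% of elements were called, 22% higher and 26.2% lower. In testis over male carcass Cyp4d21 had log2 ratios of -1.38 and -1.58 and apolpp of -2.08 and -2.37 on arrays 9 and 10. Both genes were lower in testis, Cyp4d21 by a fitted -1.48 ± 0.20 (2.78-fold, adjusted p = 4.65e-06) and apolpp by -2.22 ± 0.18 (4.67-fold, adjusted p = 2.99e-11; SE, n = 2 each), with 51.9% of elements called, 25.7% higher and 26.3% lower. No array of this comparison measured fit. Its testis RNA also read higher for all 4 accessory gland markers and for 3 of 5 ovary markers, and their part was not tested. In ovary over testis apolpp was measured on 2 of 4 arrays at log2 ratios of -1.01 and -1.08, a fitted -1.05 ± 0.18 (SE, n = 2, adjusted p = 4.95e-06, 65.6% of elements called, 34.1% higher and 31.4% lower), and the call was lost after scaling all arrays to one spread (adjusted p = 0.0597). Cyp4d21 was measured there on array 6b alone, at 0.40, and fit on none.

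Set against the gonads, tudor females stood out for fit. Tudor females over ovary gave fit log2 ratios of 3.10 and 3.07, and tudor females over testis gave 3.24 and 3.21. Tudor males over ovary gave 1.25 and 1.01, and tudor males over testis gave 1.43 and 1.24. The ranges of tudor females and tudor males did not overlap. Values of apolpp were 3.01 and 3.19 (tudor females over ovary), 2.92 and 2.82 (tudor females over testis), 3.15 and 2.40 (tudor males over ovary), and 2.96 and 2.38 (tudor males over testis), so that the sexes overlapped for this gene. All 8 fitted ratios of fit and apolpp passed the test in the higher direction. The shares of all elements called higher were 11.9%, 16.8%, 15.3% and 14.4% in the same order of comparisons, of 23.1%, 35.7%, 28.8% and 30.5% called in all and 11.1%, 18.9%, 13.6% and 16% called lower. Fitted fit log2 ratios were 3.08 ± 0.28 and 3.22 ± 0.28 for tudor females over ovary and testis, and 1.12 ± 0.28 and 1.33 ± 0.28 for tudor males (SE, n = 2 each). The fitted apolpp values were 2.84, 2.61, 2.51 and 2.41 in the same order, each ± 0.17 (SE, n = 2). For fit in tudor males the calls were lost without array 19a (adjusted p = 0.117) and without array 18a (adjusted p = 0.0529). Cyp4d21 had log2 ratios of 1.97 and 1.20 for tudor males over testis, a fitted 1.56 ± 0.21 (SE, n = 2; 2.95-fold, adjusted p = 7.16e-06). It stood at 2.05 on a single array of tudor males over ovary, and on none of the 4 arrays of tudor females with gonads.

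How often a gene was measured differed with the RNA on the array. Cyp4d21 was measured on 2 of 12 arrays carrying ovary RNA, 3 of 8 with female carcass, 2 of 8 with tudor females and 6 of 10 with whole females. It was measured on 8 of 8 arrays with XX;tra2, 4 of 4 with XX;dsx, 7 of 8 with tudor males and 8 of 10 with whole males. The gene fit was missed on 6 of 10 arrays with testis RNA and on 2 of 6 with male carcass. The filter behind missing values is not given in the sources used here, and missing arrays are left out of each fit, not set to a value.

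A further fit with 1 parameter per RNA placed the 11 RNAs on a common log2 scale for each gene, relative to the mean of the 11. Such a level is relative within a gene, and levels of different genes are not compared. The level of fit was highest in tudor females (2.12 ± 0.14), followed by female carcass (1.08 ± 0.23), XX;dsx (0.52 ± 0.23), XX;tra2 (0.44 ± 0.21), tudor males (0.13 ± 0.15), whole females (-0.18 ± 0.15), XY;tra2 (-0.29 ± 0.28), male carcass (-0.83 ± 0.28), whole males (-0.87 ± 0.16), ovary (-0.97 ± 0.17) and testis (-1.15 ± 0.21; SE). Of the 10 pairs of neighbours in this order, only tudor females and female carcass differed past the test, by 1.04 ± 0.28 (SE, adjusted p = 0.0194, 5.87% of elements called). Tudor females were also the only RNA whose fit level differed past the test from each of the other 10, with adjusted p-values of 0.0194 or less. The nearest mutants, written as mutant minus tudor females, lay at -1.59 ± 0.29 (XX;dsx, adjusted p = 0.00131, 1.49% of elements called) and -1.67 ± 0.28 (XX;tra2, adjusted p = 0.000358, 2.78% of elements called; SE).

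For Cyp4d21 the order began with XX;dsx (0.94 ± 0.21), tudor males (0.93 ± 0.15), male carcass (0.67 ± 0.25), XX;tra2 (0.52 ± 0.25), whole males (0.41 ± 0.16) and XY;tra2 (0.39 ± 0.28). It went on with tudor females (-0.37 ± 0.24), female carcass (-0.61 ± 0.30), ovary (-0.75 ± 0.25), testis (-0.81 ± 0.18) and whole females (-1.31 ± 0.22; SE). No pair of neighbours differed past the test. All RNAs with a male soma, and XX;dsx, lay above every RNA of females and of gonads in this order. In XX;dsx flies over whole males 0 of 4 accessory gland markers were lower and 1 was higher, with a median log2 ratio of 0.16. Of all elements tested there, 14.4% were lower and 10.6% higher. XX;tra2 flies and whole males did not differ past the test, at -0.11 ± 0.26 for whole males minus XX;tra2 (SE, adjusted p = 0.84, 15.9% of elements called). XX;dsx flies were higher than whole females, at -2.24 ± 0.26 for whole females minus XX;dsx (SE, adjusted p = 1.34e-06, 38.8% of elements called), a contrast with no array of its own.

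The apolpp order was female carcass (1.34 ± 0.15), tudor females (1.00 ± 0.10), XX;dsx (0.72 ± 0.17), tudor males (0.61 ± 0.11), XX;tra2 (0.54 ± 0.16), male carcass (0.52 ± 0.16), XY;tra2 (0.15 ± 0.20), whole males (-0.51 ± 0.12), whole females (-0.78 ± 0.11), testis (-1.54 ± 0.12) and ovary (-2.05 ± 0.12; SE). Whole females were above testis by 0.76 ± 0.20 (SE, adjusted p = 0.00256, 42.6% of elements called) and testis above ovary by 0.51 ± 0.13 (SE, adjusted p = 0.000597, 62.1% of elements called), and the other 8 pairs of neighbours did not differ past the test. In this fit the level of whole females minus whole males was 0.69 ± 0.17 for fit (adjusted p = 0.000864), -1.72 ± 0.22 for Cyp4d21 (adjusted p = 1.11e-06) and -0.27 ± 0.13 for apolpp (adjusted p = 0.0714; SE, 54.4% of elements called), so that apolpp no longer passed the test. Direct log2 ratios could be set against ratios through other RNAs in 5 loops for apolpp and in 3 for fit, and none of these 8 was called. For Cyp4d21 none of the 5 could be tested with 2 arrays per comparison, for lack of measured arrays. It closed 1 loop, through single arrays. There ovary over testis was 0.40 on array 6b, and tudor males over ovary 2.05 on array 19a. Tudor males over testis, at 1.97 and 1.20, lay below that value, so the route through tudor males had the sign opposite to the direct ratio. The largest gap of those tested was that of apolpp in ovary over testis, where the direct log2 ratio was lower than the one through tudor males by 0.94 ± 0.30 (SE, adjusted p = 0.0901, 0.703% of elements called). For female over male carcass the direct apolpp log2 ratio was higher than the one through the gonads by 0.84 ± 0.30 (SE). The 95% interval of that gap was 0.23 to 1.46 (adjusted p = 0.998, 0% of elements called), so the female bias of apolpp in carcasses rests on the direct arrays. Carcasses and gonads are joined to whole flies only through the tudor arrays with gonads, which had 1 dye orientation, so the place of these 4 RNAs against the rest depends on at most 8 arrays. Of these 8, only 18a, 18b and 19a measured Cyp4d21, and ovary entered the Cyp4d21 order through array 19a and array 6b alone.

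**Figure D3:**
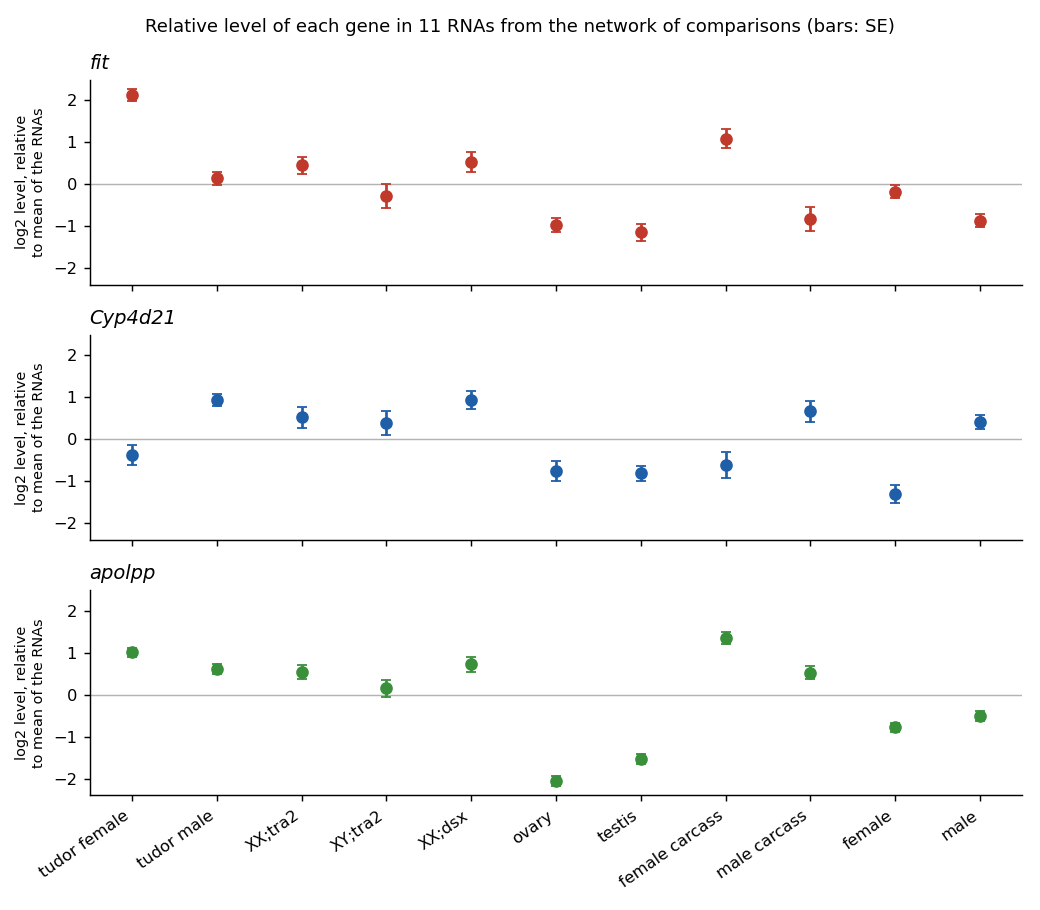
Log2 level of each gene (y axis, relative to the mean of the 11 RNAs) in tudor flies, sex-pathway mutants, gonads, carcasses and whole flies, with SE bars. The highest point is tudor females for fit (2.12), XX;dsx for Cyp4d21 (0.94) and female carcass for apolpp (1.34).

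Within an array, the log2 ratio of a gene minus that of apolpp does not depend on how the array was centred. The difference fit minus apolpp was above 0 on all arrays of the 3 sex comparisons. It averaged 1.64 ± 0.30 (n = 2) in tudor flies, 1.01 ± 1.16 (n = 4) in carcasses and 1.02 ± 0.27 (n = 4) in whole flies (SD). The carcass values spread from 0.00 to 2.63. These differences carry the dye coefficient of apolpp (0.26), which does not cancel in the tudor mean, since both tudor arrays had 1 dye orientation. With the dye coefficient the fitted tudor log2 ratios were 1.95 for fit and 0.57 for apolpp. Measured this way the sex differences of carcasses and whole flies had nearly the same mean, unlike the ratios against the array median. In tudor females over whole females fit exceeded apolpp by 0.65 on both arrays, and in tudor males over whole males the difference was -0.25 and -0.24. In XX;tra2 flies over whole females the difference had the sign opposite to fit itself, at -0.69 ± 0.45 (SD, n = 4), below 0 on 4 of 4 arrays.

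Cyp4d21 minus apolpp was below 0 on every array of the sex comparisons that measured both genes. It averaged -1.61 ± 0.38 (n = 2, 1 dye orientation) in tudor flies, -2.01 ± 1.02 (n = 3) in carcasses and -1.36 ± 0.71 (n = 2) in whole flies (SD). In XX;tra2 flies over whole females it was 0.51 ± 0.21, and in XX;dsx flies over whole males -0.71 ± 0.26 (SD, n = 4 each), with all 4 arrays on the same side of 0 in each. These within-array differences were chosen after the ratios were seen and are given without a test.

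**Figure D4:**
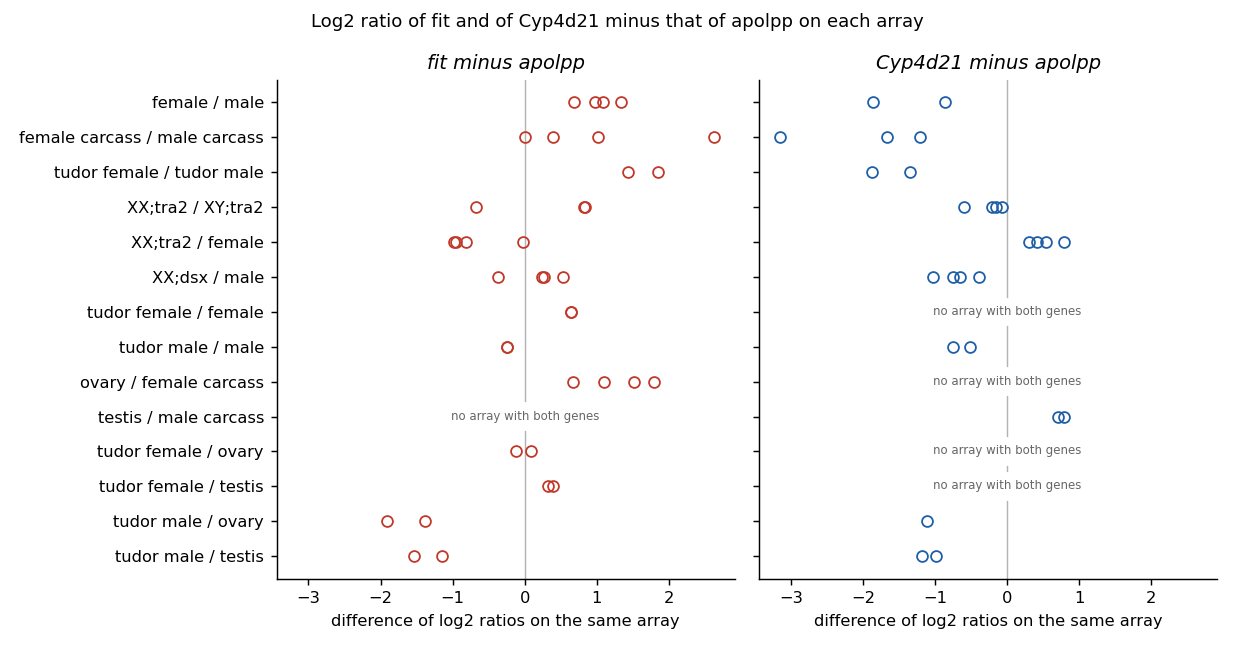
Difference of log2 ratios on the same array (x axis), fit minus apolpp and Cyp4d21 minus apolpp, for each comparison (y axis) in which an array measured both genes. Points of fit minus apolpp are above 0 in tudor, carcass and whole-fly sex comparisons and below 0 in XX;tra2 over female, and points of Cyp4d21 minus apolpp show the opposite signs there.

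Other genes with sex-biased expression in the fat body gave a reference for these patterns. Of 7 listed, 6 were on the array: Yp1, Yp2 and Yp3, which encode yolk proteins, the odorant binding protein genes Obp99a and Obp99b, and sxe2, which encodes a lipase-like protein. In tudor females over tudor males the yolk protein genes had log2 ratios between 2.48 and 2.98 and Obp99a had 1.79 ± 0.17 (SE, n = 2, adjusted p = 1.13e-08), all 4 higher, against 0.27% of all elements. Obp99b (-0.07) and sxe2 (-0.65) did not pass there. In female over male carcasses 4 of 6 were higher and sxe2 was lower at -0.82 ± 0.14 (SE, n = 4, adjusted p = 7.52e-05). Of all elements there, 8.87% were higher and 7.67% lower. In whole females over males the yolk protein genes were higher and Obp99b and sxe2 lower. Those counts, 3 and 2 of 6, stand beside 28.1% of all elements higher and 27.2% lower, so the lower count is near its share. For Obp99a the log2 ratio was 1.65 ± 0.12 in carcasses and 0.01 ± 0.12 in whole flies, where it was not called (SE, n = 4 each, adjusted p = 0.95).

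The yolk protein genes and fit had opposite signs in XX;tra2 over females and the same sign in XX;dsx over males. In XX;tra2 flies over whole females Yp1 had a log2 ratio of -3.28 ± 0.29, Yp2 of -4.08 ± 0.31 and Yp3 of -2.44 ± 0.28 (SE, n = 4 each), while fit was higher. Obp99a fell by 0.53 ± 0.12, and Obp99b and sxe2 rose by 2.47 ± 0.14 and 1.09 ± 0.14 (SE, n = 4 each), the direction of Cyp4d21 and apolpp. In XX;dsx flies over whole males Yp1 and Yp2 rose by 1.14 ± 0.29 and 1.65 ± 0.31 (SE, n = 4 each), as fit did, while Yp3 at 0.71 did not pass (adjusted p = 0.0646). Of all 6 genes of the list, 3 were higher there, 1 was lower and 2 were not called. The shares of all elements were 10.6% higher and 14.4% lower. The list was made with the known sex bias of its genes in view, so its direction is no independent evidence.

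**Figure D5:**
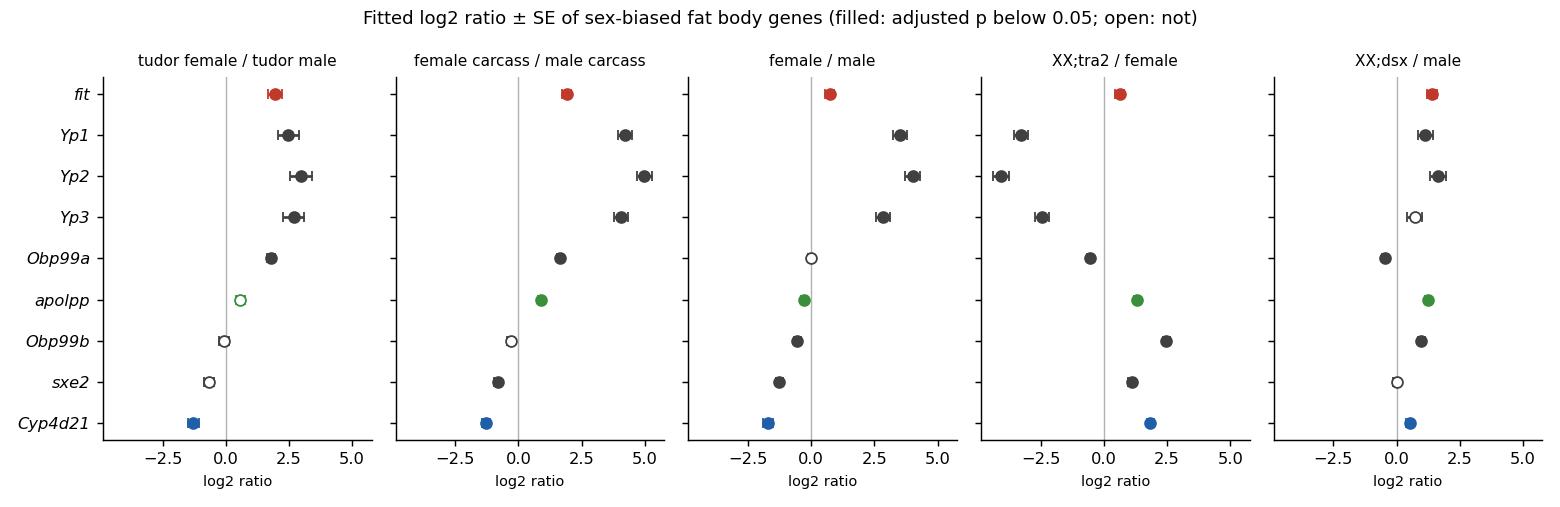
Fitted log2 ratio ± SE (x axis) of fit, apolpp, Cyp4d21 and 6 other sex-biased fat body genes (y axis) in 5 comparisons, filled where the adjusted p was below 0.05. In XX;tra2 over female the yolk protein genes lie at -2.44 or below, fit at 0.62, and Cyp4d21 at 1.83.

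Genes of lipid transport and storage, chosen for their work beside lipophorin, moved in both directions. Of 16 such genes 14 were on the array. In tudor females over whole females 9 of 13 tested were higher (14.3% of all elements) and 1 lower, with a median log2 ratio of 0.43 against 0.00 over all elements, led by the fatty acid synthase genes FASN1 (1.29 ± 0.18) and FASN2 (0.75 ± 0.17; SE, n = 2 each). In whole females over males 7 of 14 were lower and 2 higher, a number of calls near the 55.4% of all elements, with FASN2 at -1.45 ± 0.12 and FASN1 at -0.77 ± 0.12 (SE, n = 4 each). In carcasses 3 of 13 were higher and 1 lower, where 16.5% of all elements were called, among them FASN1 at 0.51 ± 0.12 and Apoltp, which encodes the lipid transfer particle that loads lipophorin, at 0.42 ± 0.10 (SE, n = 4 each). FASN1 thus had the same pair of signs as apolpp in carcasses and whole flies. In ovary over female carcass 9 of 14 were lower (26.2% of all elements) and none higher, with FASN1 at -2.35 and Apoltp at -1.65, and in tudor females over tudor males limma called 0 of 14, also 0 at an unadjusted p below 0.05, where 1.13% of all elements were called.

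Genes of storage and secreted proteins of the fat body were called higher in XX;tra2 flies and in tudor females over whole females, and in part in XX;dsx flies over whole males. Of 13 such genes 7 were on the array. In XX;tra2 flies over whole females 7 of 7 were higher, against 27.7% of all elements (median log2 ratio 1.27 against 0.01 over all elements), with Fbp2 at 2.70 ± 0.15 and Fbp1 at 2.43 ± 0.19 (SE). In tudor females over whole females 6 of 6 tested were higher, against 14.3% of all elements (median 1.4988), with Cyp6w1 at 1.72 ± 0.30 and Adh at 1.68 ± 0.31 (SE). In XX;dsx flies over whole males 4 of 7 were higher and 0 lower (median 0.57), against 10.6% and 14.4% of all elements. In whole females over males 2 of 5 tested were lower and 0 higher, where 27.2% of all elements were lower and 28.1% higher. In tudor males over whole males limma called 0 of 7, with 3 at an unadjusted p below 0.05 and a median of 0.33, near the 6.85% of all elements called. In the carcass sex comparison it called 0 of 6, with 3 at an unadjusted p below 0.05, where 16.5% of all elements were called.

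Among 21 other genes of the Cyp4 family, to which Cyp4d21 belongs, counts of calls are given beside the share of all elements called in the same direction. In whole females over males 11 of 14 tested were lower (27.2% of all elements) and 0 higher, with Cyp4g1, a P450 of cuticular hydrocarbon synthesis in oenocytes, at -1.38 ± 0.17 and Cyp4d14 at -0.71 ± 0.09 (SE). In carcasses 1 of 16 was lower, Cyp4g15 at -0.30, and 1 higher, Cyp4ae1 at 0.55, near the 16.5% of all elements called there. Between tudor females and tudor males limma called 0 of 14, where it called 1.13% of all elements, with 4 at an unadjusted p below 0.05, and the median log2 ratio was -0.15, against -1.28 for Cyp4d21. In XX;tra2 flies over whole females 13 of 15 were higher (27.7% of all elements) and 1 lower, with Cyp4e3 at 1.63 ± 0.08 and Cyp4d14 at 0.94 ± 0.09 (SE).

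Genes of the sex determination pathway itself had small ratios. Of 7 listed, 6 were on the array. In XX;tra2 flies over whole females 3 of 5 tested were called, near the 54.9% of all elements, and all 3 were lower: ix, which encodes a partner of the female doublesex protein, at -0.42 ± 0.08, fru at -0.34 ± 0.14 and dsx at -0.14 ± 0.06 (SE, n = 4 each). In whole females over males tra (0.29) and her (0.39) were higher, 2 of 5 tested, where 28.1% of all elements were higher. In XX;dsx flies over whole males ix was lower at -0.24 ± 0.08 (SE, n = 4), 1 of 5 tested, where 14.4% of all elements were lower. Both counts are near these shares. The array measures total transcript of a gene as spotted, and splice forms were not analysed here.

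The genes whose fitted log2 ratios were most like those of each gene were found among 1465 well-measured elements by uncentred correlation over the comparisons. For fit, over 13 comparisons, these were CG16775 (0.978), CG31176 (0.974), CG17571 (0.969), epsilonTry (0.962) and CG17404 (0.958). For Cyp4d21, over 9 comparisons, they were sxe2 (0.966), Sgp (0.965), CG16758 (0.948), E5 (0.932) and IA-2 (0.929). For apolpp, over 15 comparisons, they were Amyrel (0.987), CG15096 (0.982), pst (0.981), CG3625 (0.98) and Nplp2 (0.979). Among the 3 genes themselves the same measure was 0.889 for fit with apolpp over 13 comparisons, 0.598 for Cyp4d21 with apolpp over 9, and -0.128 for fit with Cyp4d21 over 8. Comparisons that share an RNA share its sample, and the points are not independent.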

How the data were processed

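Each spot's deposited value is a log ratio of its 2 channels, taken here as log2. How the authors corrected background, normalized, chose the numerator and set values to missing is not given in the sources used here. Per the labels' protocols, 200 ng of poly(A) mRNA were labelled per channel and slides were scanned on a GenePix 4000A. Hybridisations 17 to 25 were deposited to 2 decimals and the others to more. These are the hybridisations that carried tudor RNA, and no others did. Absence of a germline and form of deposit therefore cannot be told apart where tudor arrays are set against other arrays. Over 11230 elements, direct ovary over testis log2 ratios had an SD 1.572 times that of ratios through tudor males (r = 0.94). The cause was not tested.

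Duplicate spots were averaged, arrays were centred on their medians, and all 44 arrays of the 15 comparisons were fitted together in R 4.3.3 with limma 3.58.1 (generalised least squares per element, a coefficient per comparison signed by dye orientation, a dye coefficient, hybridisation number as a random block with correlation -0.0672, moderated variances, Benjamini-Hochberg adjustment within a comparison). An element was tested with at least 2 arrays of the comparison. The fit was tested only on simulated data with independent noise. That test cannot show how the fit handles correlated arrays or arrays of unlike spread. First-subarray values of arrays 7b and 8b, which ran opposite to 7a and 8a, were left out after seeing the data, and none of them belongs to the 3 genes. The genes, gene lists, tests and alternatives were chosen with earlier results of these data known. Listed genes named with values are all those of the sex-biased fat body list, the called genes of largest absolute log2 ratio in the other lists, and the 5 genes most like each gene. Alternatives changed the centring, scaling, dye coefficient, block, spots, elements or arrays used.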

Additional observations from a re-analysis of the deposited data

Results flagged for a closer look

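Sex differences of fit and apolpp differed between settings by a test of the difference itself. For fit the carcass sex difference exceeded that of whole flies by 1.17 in log2 ratio, and the tudor sex difference exceeded it by 1.22. The fit log2 ratio of tudor over whole flies was larger in females than in males by 1.48, here called the germline difference. For apolpp the carcass and tudor sex differences exceeded the whole-fly one by 1.18 and 0.86. The tudor and germline differences rest on 2 arrays on at least one side, and the part of gonad RNA in them was not tested. Among 14 groups of 4 arrays, no array of fit, Cyp4d21 or apolpp stood apart from the other 3 by Dixon's criterion. Groups with fewer measured arrays were not tested this way, among them fit in XX;tra2 over XY;tra2, where array 15b was at -0.09.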

How the results depend on the processing

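Over the alternatives other than leaving out 1 array at a time, 243 log2 ratios of the 3 genes kept their direction and their side of the threshold, 17 lost a call and 4 gained one. Left without centring, fit in tudor males over whole males was 0.89. Scaling arrays to one spread gave fit 0.50 and apolpp -0.20 in females over males, apolpp -0.53 in ovary over testis and fit 0.48 in XX;tra2 over females, all without a call. It gave calls to apolpp in tudor females over tudor males (1.14) and Cyp4d21 in tudor males over whole males (0.99). It turned the Cyp4d21 carcass minus whole-fly sex difference (-0.53) and the apolpp germline difference (-0.12), neither with a call. The Cyp4d21 tudor minus whole-fly sex difference also turned, to -2.53, and was called (adjusted p = 0.000755). Scaling gave tudor minus carcass calls to fit (3.11) and Cyp4d21 (-2.002), and left the fit germline difference at 1.00 without a call. The cause was not tested. Without the dye coefficient apolpp lost its calls in females over males (-0.29), XX;tra2 over XY;tra2 (0.39) and the tudor minus whole-fly difference (0.60). With arrays taken as independent, apolpp in females over males (-0.29) and fit in tudor males over whole males (0.91) lost their calls and the Cyp4d21 tudor minus carcass difference was 0.0026. The first spot alone gave apolpp -0.22 in females over males and 0.31 in XX;tra2 over XY;tra2, without calls. The second spot alone gave fit 0.69 in females over males and 0.79 in tudor males over whole males, without calls, and 0.033 for the Cyp4d21 tudor minus carcass difference. With only a comparison's own arrays and no dye coefficient, calls were lost for apolpp in females over males (-0.29), carcasses (0.89), XX;tra2 over XY;tra2 (0.39) and the tudor minus whole-fly difference (0.60) and for fit in XX;tra2 over XY;tra2 (0.74), and gained for apolpp in tudor females over tudor males (0.31) and Cyp4d21 in tudor males over whole males (0.52). Without the arrays of 1 dye orientation the fit level of tudor males over whole males was 0.91, without a call.

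Leaving out 1 array at a time, values ranged as follows where a call or direction changed. Where this left a comparison with 1 array, that array was assumed to vary like the others. For fit the log2 ratio ran from 0.50 to 0.74 in XX;tra2 over females, 0.49 to 1.16 in XX;tra2 over XY;tra2, 1.23 to 1.43 in tudor males over testis, 1.01 to 1.24 in tudor males over ovary and 0.72 to 1.10 in tudor males over whole males. The fit differences ran from 1.12 to 1.32 for tudor minus whole-fly, -0.10 to 0.36 for tudor minus carcass and 1.29 to 1.67 for the germline. Those of Cyp4d21 ran from -1.66 to -0.90 in tudor females over tudor males, 0.44 to 0.59 in XX;dsx over males, 0.29 to 0.70 for carcass minus whole-fly (called without array 3a) and -0.39 to 0.38 for tudor minus carcass. Those of apolpp ran from -0.37 to -0.25 in females over males, 0.32 to 0.47 in XX;tra2 over XY;tra2 and 0.74 to 0.97 for tudor minus whole-fly. Cyp4d21 in females over males and apolpp in ovary over testis were measured on 2 of 4 arrays. Leaving out either of those 2 was not possible under the minimum of 2 arrays, so these ratios were not tested this way. Cyp4d21 differences from whole flies likewise kept both of their whole-fly arrays.

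Counts of elements called moved more. Scaling gave 3006 in carcasses, 4836 in XX;dsx over males, 3254 in XX;tra2 over XY;tra2, 3045 in tudor females over tudor males, 3057 in tudor males over whole males, 1807 for carcass minus whole-fly, 1743 for tudor minus carcass and 2382 for the germline difference. A comparison's own arrays gave 3972 in females over males, 174 in carcasses, 790 in XX;tra2 over XY;tra2, 1758 in tudor females over tudor males, 1310 for carcass minus whole-fly, 960 for tudor minus whole-fly and 0 for tudor minus carcass (limma). The last count was 4 with independent arrays, 7 and 10 with the first and second spot, and the germline count was 684 without the dye coefficient and 567 with the first spot. Values of arrays 7b and 8b as deposited gave 3253 in ovary over female carcass. The 4908 elements with values on all 44 arrays, none of them a spot of the 3 genes, gave 2370 in females over males, 856 in carcasses, 2913 in ovary over testis, 2459 in ovary over female carcass, 2178 in testis over male carcass, 2518 in XX;tra2 over females, 960 in XX;dsx over males, 504 in XX;tra2 over XY;tra2, 19 in tudor females over tudor males, 1310 and 1484 in tudor males over testis and ovary, 1421 and 1272 in tudor females over testis and ovary, 159 in tudor males over whole males, 1200 in tudor females over whole females, 1553 for carcass minus whole-fly, 905 for tudor minus whole-fly, 4 for tudor minus carcass and 447 for the germline difference. Leaving out 1 array gave 732 to 2066 in carcasses, 2514 to 6046 in ovary over female carcass, 4210 to 5054 in testis over male carcass, 2053 to 2754 in XX;dsx over males, 1364 to 2028 in XX;tra2 over XY;tra2, 46 to 85 in tudor females over tudor males, 1383 to 3202 and 1491 to 2220 in tudor males over testis and ovary, 2183 to 2955 and 957 to 1785 in tudor females over testis and ovary, 391 to 480 in tudor males over whole males, 445 to 1938 in tudor females over whole females, 1253 to 2902 for tudor minus whole-fly, 0 to 22 for tudor minus carcass and 96 to 768 for the germline difference. The number of arrays, 2 or 4 in a comparison, limits the precision of all of these, and missing spots limit Cyp4d21 most.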
